A study of Danio rerio with 18 samples.

Results

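The regions described here were accessible in control hepatocytes (HEPs) and in at least 1 other control cell type of the zebrafish liver, and had no peak in any cell type of fish given the hepatotoxin thioacetamide (TAA). They were found by joining all peaks of the 6 deposited peak lists into regions wherever peaks overlapped by 1 bp or more. A region was kept if it held a peak of the HEP control list, a peak of the hepatic stellate cell (HSC) or endothelial cell (EC) control list, and no peak of the 3 TAA lists. Of 92012 merged regions, 38781 were shared by control HEPs and another control list, and 989 of these (2.55%) were absent from all 3 TAA lists. Over all 76289 regions with any control peak, 22163 (29.1%) were absent. The rule itself used presence and absence in these lists, so that number and every comparison of control with TAA below is a description and no test of it was made.

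The assay was ATAC-seq, run on 18 libraries of 60000 fluorescent cells each, sorted from livers of adult female zebrafish of the AB background, 3 libraries for each of 6 groups. HEPs came from Tg(fabp10a:dsRed), HSCs from Tg(hand2:EGFP) and ECs from Tg(kdrl:ras-mCherry) fish, so each cell type was defined by the promoter that drove its reporter, and cell type and transgenic line cannot be told apart. Fish received intraperitoneal TAA at 500 mg/kg, or a control injection, 6 times in 2 weeks. The study describes the control injection as sterile water in 1 place and as saline in others. Each group was represented by a single list of peaks called on its 3 libraries together, with 41563 (HEP control) to 61245 (HSC TAA) peaks, so there was no replicate error, and depth was unknown because the lists hold no read counts. The labelled cell types were not set against marker genes. The lists name no genes, and the gene names available here reached only chromosomes 1, 10 and 11. The EC control list stood apart from the others, since 15874 of 18321 regions found in it alone (86.6%) were in no TAA list, compared with 24.4% of HSC-only and 28.1% of HEP-only control regions. The number of regions, their share and their median HEP rank are also given without it. Class shares and EC ranks need this list and could not be given without it.

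In this assay a transposase cuts DNA that is free of nucleosomes, and peaks mark promoters, enhancers and other sites where regulatory proteins hold chromatin open. Hepatocytes are the metabolic cells of the liver, stellate cells store vitamin A and make matrix when activated, and endothelial cells line the sinusoids. Promoters of broadly used genes tend to be open in all of them, whereas enhancers are more often particular to a cell type. A peak that is missing from a list did not reach the threshold of the peak caller there, which is not the same as chromatin that was measured as shut.

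The 989 regions fell into 3 classes by the control lists that held them. The largest class was in the control lists of HEPs, HSCs and ECs alike, with 581 regions or 58.7% (Wilson 95% interval 55.7 to 61.8, counting error only). Another 276 regions (27.9%, 25.2 to 30.8) were in the HEP and EC control lists, and 132 (13.3%, 11.4 to 15.6) in the HEP and HSC control lists. This order depended on list length. With every list reduced to the best 41563 peaks, the length of the shortest, the HEP and EC class was the largest. It held 870 of 1740 absent regions against 611 in all 3 control lists, and with the best 20000 peaks 222 of 585 against 165. These cuts removed weak peaks from control and TAA lists alike. Regions that lost a weak HSC control peak could move into the HEP and EC class, and such moves were not counted. Regions of that class in the cut lists can therefore have an HSC control peak in the whole list. Among the 37792 shared regions that kept a peak in at least 1 TAA list, the HEP and EC class was rare, with 544 regions or 1.44%, and the HEP and HSC class was common, with 12613 or 33.4%.

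Absence from all 3 TAA lists was thus very unequal between the classes. It applied to 276 of 820 HEP and EC regions, or 33.7% (30.5 to 37.0), to 581 of 25216 regions of all 3 control lists, or 2.304% (2.13 to 2.50), and to 132 of 12745 HEP and HSC regions, or 1.04% (0.874 to 1.23). The HEP and EC share was above that of regions of the HEP control list alone (655 of 2332, 28.1%, 26.3 to 29.9) and close to that of regions which control HSCs and ECs had without HEPs (2161 of 6659, 32.5%, 31.3 to 33.6). The background was 29.1% over all 76289 regions with any control peak, and it differed by list, with 9.77% of HSC and 37.0% of EC control regions in no TAA list. The HEP and EC share of 33.7% was thus near the EC background, and the other classes were far below it. These shares were not matched for HEP strength. The weakest 10% of the HEP control list by score held 348 of 820 HEP and EC regions. It held 1553 of 25216 regions of all 3 control lists and 1237 of 12745 HEP and HSC regions. Within it, 187 of 348 (53.7%), 266 of 1553 (17.1%) and 53 of 1237 (4.28%) were absent. The order was the same, with the first 2 classes closer in relative terms.

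**Figure D1:**
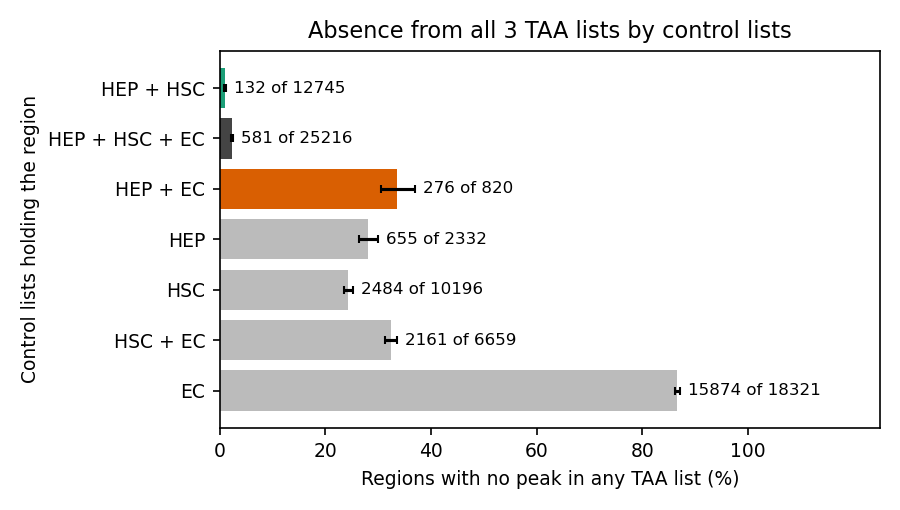
Percent of merged regions with no peak in any TAA list (x axis), by the control lists that held the region (y axis), with Wilson 95% intervals of counting error and the counts beside each bar. The 3 coloured bars are the classes that make up the 989 regions, of which HEP and EC regions stand at 33.7% and the other classes at 2.304% and 1.04%. The bars are not matched for the strength of the HEP peak.

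The TAA lists contributed differently to the absence of each class. Of the shared HEP control regions, 10.6% had no peak in the HEP TAA list, 7.02% none in the HSC TAA list and 11.0% none in the EC TAA list. HEP and EC regions lacked a HEP TAA peak in 66.5% of cases, an HSC TAA peak in 46.2% and an EC TAA peak in 52.9%. For HEP and HSC regions, which had no EC control peak, these shares were 15.5%, 3.21% and 4.97%. For regions of all 3 control lists they were 6.35%, 7.68% and 12.7%. Once a HEP and EC region was missing from HEP TAA, it was also missing from both other TAA lists in 276 of 545 cases (50.6%).

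HEP and HSC regions showed a different course. They were missing from the HEP TAA list in 1978 of 12745 cases (15.5%), but only 132 of those 1978 (6.67%) were missing from the HSC and EC TAA lists too. In the class of all 3 control lists, 1602 of 25216 regions (6.35%) were missing from HEP TAA, and 581 of these (36.3%) from the others as well. HEP and HSC regions were therefore mostly found again in TAA HSCs or TAA ECs when HEPs lacked them, whereas HEP and EC regions were not in about every other case.

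The regions held weak peaks in control HEPs. Peaks were ranked within each list by the score of the peak caller, which rises as the q-value falls, and ranks are given as percentiles from 0 for the strongest peak to 100 for the weakest. The median rank in the HEP control list was 90.4 (quartiles 81.9 and 96.0, range 27.3 to 99.998), against 45.9 for kept shared regions. The weakest decile of the HEP control list (each decile being 10% of its peaks) contained 506 of the 989 regions (51.2%), and its strongest 20% contained none, or 0 of 8301 shared regions, which allows a share of up to 0.0361%. A peak near the threshold needs only a small difference in score to be missing from another list, and the rule selects for missing peaks, so this ordering is no finding.

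In control ECs the same regions ranked much better than in control HEPs, but not better than kept shared regions did in ECs. Of the 857 regions with an EC control peak, 526 (61.4%) ranked in the better 50% of the EC control list and 139 (16.2%) in its best 25%. Their median EC rank was 43.3, against 31.3 for all kept shared regions with an EC control peak. In the HEP control list 8 of 989 regions (0.809%) lay in the better 50%, and in the HSC control list 36 of 713 (5.05%). Neither the best 25% of the HEP control list nor that of the HSC control list held any of the regions.

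To see whether this strength in ECs was shared by other weak HEP peaks, kept regions were weighted to the same spread over deciles of the HEP control list. In the class of all 3 control lists, the median EC rank was 39.7 (quartiles 28.6 and 52.9) in the absent regions and 48.3 (30.6 and 68.7) in the weighted kept regions. The median HSC rank was 76.1 (64.6 and 87.6) against 60.2 (47.8 and 73.5). The rule asks for no peak in the HSC TAA list and so selects weak HSC peaks, as it does weak HEP peaks, and the lower HSC rank is no finding. The EC rank of the absent regions was the better one at similar HEP strength, although the quartiles overlapped. The EC median was the better one in the absent regions on 24 of 25 chromosomes, which are parts of the same lists and no replicates.

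Within single regions the order was steeper. The EC peak ranked better than the HSC peak in 546 of 581 regions of all 3 control lists (94.0%), compared with 64.6% of weighted kept regions, a comparison that the selection of weak HSC peaks by the rule enters. It ranked better than the HEP peak in 564 of 581 (97.1%), where weighted kept regions reached 91.7%. In the HEP and EC class the difference from kept regions was small, with a median EC rank of 57.8 against 62.5 and largely shared quartiles.

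**Figure D2:**
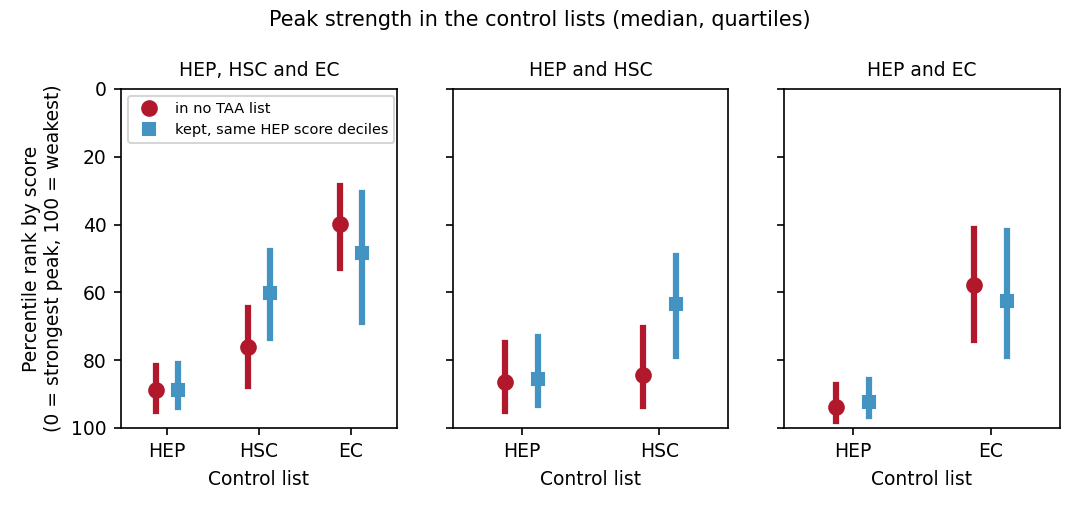
Percentile rank by peak score (y axis, 0 strongest, drawn downwards) in each control list (x axis) for the 3 classes, with points for medians and lines from the lower to the upper quartile. In regions of all 3 control lists, absent regions rank at 39.7 in ECs and 76.1 in HSCs, and kept regions of the same HEP score deciles at 48.3 and 60.2.

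The link with the EC control list was then examined at similar strength in the other cell types. Among shared HEP and HSC control regions in the weakest 3 deciles of the HEP list, those in the weakest HSC decile were absent from all TAA lists in 110 of 346 cases (31.8%, 27.1 to 36.9) if control ECs had a peak, and in 40 of 448 (8.93%, 6.63 to 11.9) if they had none. In the 8th decile of the HSC list the shares were 119 of 734 (16.2%) with and 20 of 677 (2.95%) without an EC peak. In the 7th decile they were 117 of 1072 (10.9%) and 9 of 810 (1.11%). The shares with an EC peak were the higher ones in each of the HSC deciles from the 5th to the 10th, whereas in the 4th decile, with 2 absent regions on each side, the order was the opposite (2 of 473 and 2 of 265). Pooled over the 7th to 10th deciles, the shares were 466 of 2747 (17.0%, 15.6 to 18.4) with and 95 of 2531 (3.75%, 3.08 to 4.57) without an EC peak. With the best 20000 peaks of every list they were 10.7% (9.10 to 12.6) and 9.32% (7.98 to 10.9), and the intervals overlapped. Without the EC TAA list, the pooled shares were 18.1% (16.7 to 19.6) with and 6.67% (5.76 to 7.71) without an EC control peak. Over all strengths, the EC TAA list lacked 12.7% of regions of all 3 control lists and 4.97% of HEP and HSC regions.

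**Figure D3:**
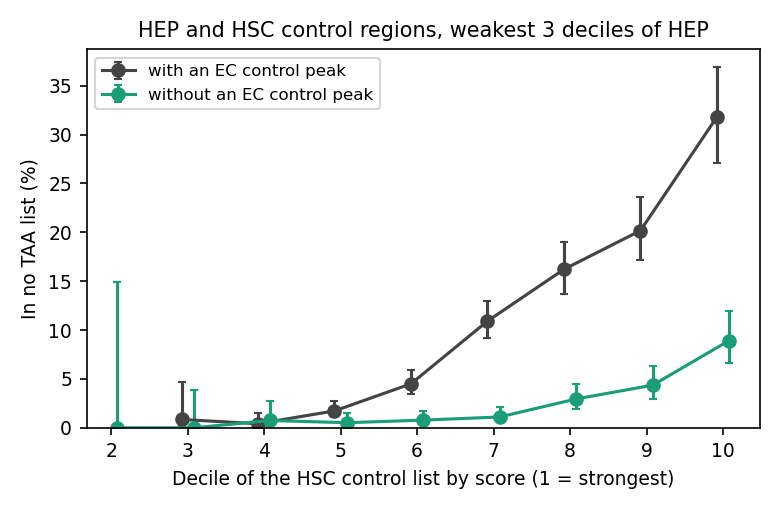
Percent of regions in no TAA list (y axis) by decile of the HSC control list (x axis, 1 strongest), for regions in the weakest 3 deciles of the HEP control list, with and without an EC control peak. Points are shares with Wilson 95% intervals, and groups under 20 regions are not drawn. The lines part from the 5th decile on and end at 31.8% and 8.93%.

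The absent share did not follow EC strength in 1 direction. In the weakest 3 HEP deciles of the class of all 3 control lists, the absent share was 17 of 154 (11.0%, 7.01 to 17.0) in the strongest EC decile and 41 of 465 (8.82%, 6.57 to 11.7) in the 2nd. It was 122 of 787 (15.5%, 13.1 to 18.2) in the 4th and 7 of 247 (2.83%, 1.38 to 5.73) in the weakest. The strongest and the 4th decile were within counting error of each other, whereas the weakest decile was below both.

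**Figure D4:**
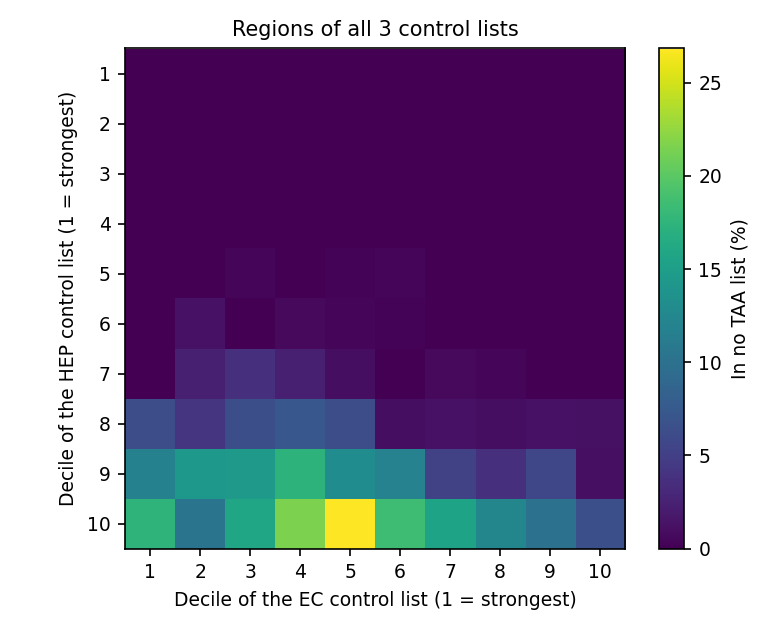
Percent of regions of all 3 control lists that were in no TAA list (colour), by decile of the HEP control list (y axis) and decile of the EC control list (x axis), 1 being the strongest. The brightest cells lie in the weakest HEP decile at the 4th and 5th EC deciles.

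The strongest regions were picked by the worst of their ranks over the control lists that held them. In the class of all 3 control lists, the first was at chromosome 2, 43191282 to 43191564 (GRCz11, as all positions here). It scored 372 in control HEPs (rank 43.9), 399 in control HSCs (46.3) and 671 in control ECs (23.5), and the nearest TAA peak of any cell type lay 4167 bp away. It was the only region of the class with a rank under 50 in all 3 control lists.

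The next regions of this class had moderate HEP and HSC ranks and often a better EC rank. At chromosome 2, 49632805 to 49633031, the HEP peak scored 268 (rank 56.4), the HSC peak 360 (49.97) and the EC peak 780 (19.5). Chromosome 2, 35488281 to 35488592, had the widest spread of ranks among the 10 strongest, with 251 in HEPs (rank 59.1), 405 in HSCs (45.8) and 1045 in ECs (12.8). It lay within 10 kb of another absent region, of the HEP and EC class.

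The smallest EC lead over HSCs among the 10 was at chromosome 10, 41210895 to 41211090, which ranked at 58.4 in HEPs, 56.8 in HSCs and 51.0 in ECs and had no TAA peak within 23062 bp. At chromosome 3, 59783136 to 59783315, the ranks were 53.5, 59.3 and 43.4. Over the 10 regions, the EC rank was the best of the 3 in 9, all but the one on chromosome 16 at 25931952 to 25932095, in which the HEP rank was 46.2, the HSC rank 62.2 and the EC rank 50.4. Because the rule selects weak HEP and HSC peaks, this count is no finding.

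Regions of the HEP and HSC class had no EC peak to lead them. The first lay on chromosome 1 at 55857969 to 55858233 and scored 282 in HEPs (rank 54.4) and 584 in HSCs (33.8). It was followed by chromosome 20, 33948291 to 33948452, with ranks of 50.4 and 56.0, and chromosome 25, 7642048 to 7642272, with 58.1 and 45.3. HEP ranks of the 6 strongest spanned 50.4 to 58.9, and HSC ranks 33.8 to 58.4.

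The HEP and EC class held the strongest HEP peak of all 989 regions. This was at chromosome 2, 7293743 to 7293930, where the HEP score was 626 (rank 27.3) and the EC score 317 (rank 47.8), with the nearest TAA peak 13637 bp away. The region at chromosome 2, 19480602 to 19480748, ranked at 40.8 in HEPs (score 406) and 22.0 in ECs (708), with a TAA peak 455 bp away. Among the 6 strongest of this class, 3 ranked better in HEPs than in ECs. These included the neighbours on chromosome 8 at 34974614 to 34974783 (ranks 64.9 and 66.2) and 34977502 to 34977656 (66.3 and 67.1), where the difference was small. The 6 were picked by their worst rank and do not stand for the class. Over the whole class the EC peak ranked better than the HEP peak in 257 of 276 regions (93.1%), compared with 88.8% of weighted kept regions.

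Ranked by control ECs alone, the 5 leading regions had EC ranks of 2.52 to 4.45 and HEP ranks of 78.8 to 98.2. The best EC peak was at chromosome 18, 38284833 to 38285195, with an EC score of 2117 (rank 2.52), a HEP rank of 87.0 and an HSC rank of 93.9. The next, at chromosome 22, 37779719 to 37779969, had an EC rank of 4.15 and an HSC rank of 49.1, and its HEP rank of 78.8 was the best of the 5. At chromosome 10, 43743436 to 43743804, the EC rank was 4.19, the HSC rank 54.3 and the HEP rank 98.2. The nearest TAA peak of any cell type, EC TAA included, was 2014 to 7711 bp away from these 5 regions.

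Gene names were available for 19 regions on chromosomes 1, 10 and 11, each within 3 kb of a gene start, from a shortened annotation of the peaks that did not reach the other chromosomes. On these chromosomes, 19 of 111 regions had a name. Named kept regions were not counted, so this share has no background beside it. Because the annotation was shortened, a region without a name can still lie near a gene start. None of the 22 strongest regions was among the named ones, but most of the 22 lay on chromosomes that the annotation did not reach. Of the 19, 14 were in all 3 control lists, 4 in the HEP and HSC lists and 1 in the HEP and EC lists. In 13 of the 14 regions of all 3 lists the EC peak had the best rank. The rule selects weak HEP and HSC peaks, and named kept regions were not counted, so this order is no finding.

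Of the 19 genes, only il1b belonged to the lists of liver, stellate, endothelial and immune genes whose regions were to be named. It encodes interleukin 1 beta, a cytokine that starts inflammation. Its region, chromosome 10 at 44953068 to 44953281, scored 101 in control HEPs (rank 95.4), 142 in control HSCs (86.4) and 312 in control ECs (48.5). The nearest TAA peak was 3260 bp away. The site was thus at the weak end of the HEP and HSC lists and near the middle of the EC list.

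The region at sparcl1, which encodes a matrix-associated glycoprotein related to SPARC, showed the EC lead more clearly. On chromosome 1 at 37391899 to 37392114, HEPs scored 113 (rank 92.5), HSCs 195 (73.7) and ECs 508 (31.8). A TAA peak was only 49 bp away, so the wider sparcl1 site kept a peak in a TAA list. The regions at traip, a ubiquitin ligase that acts in DNA replication, and at smcr8b, whose mammalian relative acts in autophagy, were also led by ECs. For traip the ranks were 79.9, 77.7 and 20.7 in HEPs, HSCs and ECs, and for smcr8b they were 98.2, 82.3 and 36.6. The nearest TAA peak was 1933 bp away for traip and 365 bp away for smcr8b.

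The EC lead over HSCs was smaller at other genes of the class. The region at slc5a3a, a transporter of myo-inositol, ranked at 84.6 in HEPs, 73.1 in HSCs and 60.9 in ECs. That at CHRNA9, a subunit of nicotinic acetylcholine receptors, ranked at 82.6, 61.9 and 51.6. The region at RAB38, a small GTPase of vesicle traffic, was the exception to the EC lead, since its HSC rank of 77.7 was better than its EC rank of 82.8. Further names included CTXN3, TMEM275, si:dkey-231n3.4, si:ch211-1a19.3 and 2 copies of 5S_rRNA, a repeated gene at which reads of near-identical copies cannot be told apart.

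Genes next to regions without an EC control peak were PAIP2B, SLC46A2, efnb3a and krt93. PAIP2B, which binds poly(A)-binding protein and restrains translation in mammals, had the strongest HEP peak of the 19, with a score of 250 (rank 59.2) and an HSC rank of 93.7. The region at efnb3a, an ephrin ligand, ranked at 84.0 in HEPs and 98.0 in HSCs, and that at krt93, a keratin, at 87.9 and 76.1. The single HEP and EC region was at gaa2, named for lysosomal acid alpha-glucosidase, which breaks down glycogen, with ranks of 84.3 in HEPs and 49.9 in ECs. Its nearest TAA peak was 918 bp away.

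Peak widths differed between the cell types in the same direction as the ranks. The median width of the HEP control peak was 122 bp in the absent regions and 123 bp in kept regions of the same HEP deciles, so HEP widths were nearly equal at equal HEP strength. The EC control peak was 199 bp wide against 188 bp, and the HSC control peak 154 bp against 172 bp. In the HEP and HSC class the HSC peak had a median width of 132 bp, against 169 bp in weighted kept regions. The rule selects weak HSC peaks and the weighting covered HEP strength only, so the narrower HSC peaks are no finding. Summits of HEP and EC peaks lay a median of 19 bp apart (quartiles 6 and 44) against 18 bp in weighted kept regions.

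Of the 989 regions, 51 lay within 10 kb of another, in 25 runs, of which the longest had 3 regions at chromosome 15, 4274864 to 4283472. Such runs were not counted among kept regions, so this number has no background beside it. The nearest region of any kind was itself one of the 989 for 27 (2.73%, 1.88 to 3.94), compared with 1.29% of weighted kept regions, and for 10 of 276 in the HEP and EC class (3.62%, 1.98 to 6.54), compared with 1.01%. The nearest other region of any kind was at a median distance of 3163 bp, close to the 3144 bp of weighted kept regions. It was, however, more often itself missing from every TAA list, for 317 of 989 regions (32.1%, 29.2 to 35.0) compared with 23.2% of weighted kept regions.

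The kind of neighbour differed by class. In the HEP and EC class the nearest other region was in no TAA list for 102 of 276 (37.0%) against 26.2% of weighted kept regions, and in the class of all 3 control lists for 187 of 581 (32.2%) against 26.3%. In the HEP and HSC class it was 28 of 132 (21.2%, 15.1 to 28.9), an interval that included the 18.8% of weighted kept regions. A neighbour found in the EC control list alone accounted for 211 of 989 regions (21.3%) against 15.8%, but within the classes the gaps were smaller. The shares were 21.2% (18.04 to 24.7) against 17.9% for all 3 control lists, 12.9% (8.20 to 19.7) against 12.7% for HEP and HSC, and 25.7% (20.9 to 31.2) against 21.5% for HEP and EC, and the last 2 intervals included the value of kept regions.

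All 25 chromosomes contributed, with 22 to 55 regions each. The absent share of shared regions ranged from 1.84% on chromosome 3 to 3.59% on chromosome 18. The share in the HEP and EC class exceeded that of all 3 control lists on 25 of 25 chromosomes, although chromosomes held only 5 to 18 absent regions of this class. The share of all 3 control lists exceeded that of HEP and HSC regions on 23 of 25, with chromosomes 10 and 24 in the opposite order. Chromosomes are parts of the same lists, so these counts are no replication.

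**Figure D5:**
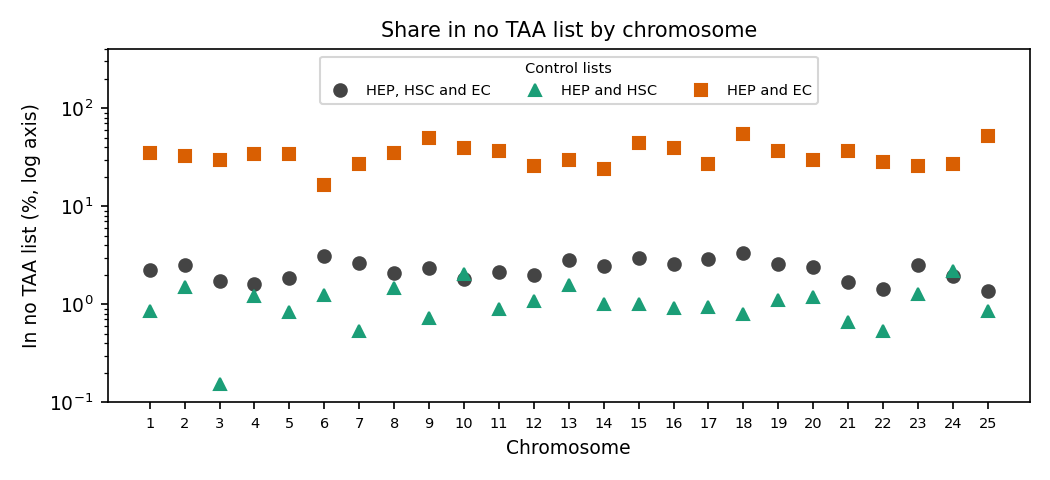
Percent of shared HEP control regions in no TAA list (y axis, log scale) for each chromosome (x axis) and each class of control lists. HEP and EC regions range from 16.7% to 54.5%, above both other classes on 25 of 25 chromosomes.

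Near the limit of the rule, few regions depended on a handful of bases. The region closest to a TAA peak, at chromosome 18, 18884995 to 18885183, was 15 bp from it, and the next ones were 46, 47, 49 and 51 bp away. On the other side, the kept region with the least overlap of a control and a TAA peak, at chromosome 23, 15279501 to 15279978, shared 7 bp, and 3 kept regions shared under 50 bp. The median distance to the nearest TAA peak was 4787 bp (quartiles 2176 and 10644), and 94 of 989 regions (9.50%) had a TAA peak within 500 bp.

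The number of regions moved in both directions with the peaks admitted. With every list reduced to the length of the shortest, 1740 regions (4.77%) were absent. When the better 50% of each control list was set against the whole TAA lists, 5 of 19642 shared regions (0.0255%) were absent, which were 3 on chromosome 2 already named, chromosome 8 at 20441786 to 20442042 and chromosome 1 at 33681716 to 33681932. Without the EC control list, which stood apart from the other lists, 714 of 37988 shared regions (1.88%) were absent, and without the EC TAA list 1186 of 38799 (3.06%).

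The reverse rule, a peak in the HEP TAA list and at least 1 other TAA list but in no control list, was met by 1402 of 40563 regions (3.46%), more than the 989 of 38781 described above. TAA lists were longer than control lists and depth was unknown, and the part of list length in this difference was not tested. By class, 179 of 649 regions of the HEP and EC TAA lists (27.6%, Wilson 95% interval 24.3 to 31.1) were in no control list, as were 385 of 2773 regions of the HEP and HSC TAA lists (13.9%, 12.6 to 15.2) and 838 of 37141 of all 3 TAA lists (2.26%, 2.11 to 2.41). The HEP and EC class thus had the highest share in both directions, but HEP and HSC regions were above those of all 3 lists only in the reverse set. The EC lead over HSCs did not hold in the reverse set, whereas that over HEPs was smaller. Kept regions were not weighted for the reverse set. In the reverse set with peaks in all 3 TAA lists, the median rank was 83.9 for HEPs, 69.99 for HSCs and 74.6 for ECs, compared with 88.7, 76.1 and 39.7 in the control lists for the absent regions of all 3 control lists.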

How the data were processed

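The authors aligned ATAC-seq reads to GRCz11 with Bowtie2 (2.3.4.3), kept fragments of at most 128 bp and shifted reads by +4 and -5 bp. With MACS2 (2.1.0.2) they computed a p-value track per library, combined the 3 tracks of a group by Fisher's method and called peaks, and then removed peaks over low-complexity sequence with bedtools (2.27.1). The deposited lists give a score per peak and a summit offset, and the fold, p and q columns are 0 for every peak and were not used. The score depends on depth, so lists were compared by rank within each list, and scores are printed only as the deposited values. Lists pool their libraries, so no replicate spread exists. The study used fewer control fish than there are control libraries, and how fish were divided among libraries is not stated, so the libraries may not be independent.

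Peaks were merged and counted in Python (3.11.15) with pandas (2.3.3) and scipy (1.17.1), and the merging was tested on simulated data. A region's rank in a list is that of its best peak there. Kept regions were weighted so that each decile of the HEP control list had the same share as among the absent regions. Intervals are Wilson 95% intervals, cover counting error only, and treat regions as independent, which they need not be. Where a count was 0, the limit is the share of 3 counts. Named regions were the first 10 of the class of all 3 control lists and the first 6 of each other class by their worst rank, together with genes of fixed lists. Members, gene lists and comparisons were chosen with earlier results of these data known. Gene names, without values, came from the study's annotation of peaks within 3 kb of gene starts, of which only a shortened part was available here. The remaining regions named were chosen after their values were seen. No genome or annotation of GRCz11 was used here, so sequences, motifs and the share of regions near gene starts were not analysed here.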

Additional observations from a re-analysis of the deposited data

How the results depend on the processing

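No paired analysis was possible because each group has 1 peak list for its 3 libraries, so replicate numbers carry no values and no library could be left out. The share of regions near a gene start, with its alternatives, was not run. Depth could not be equalised, since the lists hold no counts. The class shares, the contrast by EC peak and the settings without an EC list were chosen after seeing the data. With the better 50% of every list, 331 regions (1.69% of shared regions) were absent, 49.8% of them in all 3 control lists, at a median HEP rank of 88.2. With every list reduced to the length of the shortest these values were 1740, 4.77%, 35.1% and 88.2, and with the best 20000 peaks of every list 585, 3.32%, 28.2% and 85.7. The better 50% of the control lists against whole TAA lists left 5 regions (0.0255%), 20% of them in all 3 lists, at a median rank of 87.9. These settings remove weak peaks by construction. The HEP and EC class was the largest with lists of the shortest length and with the best 20000 peaks. In these settings, regions that lost a weak HSC control peak could move into it, and such moves were not counted. It held 4 of the 5 regions left by the better 50% of the control lists, counted in the reduced lists. In the whole control lists, those on chromosome 8 and chromosome 1 had an HSC peak too and belonged to the class of all 3 lists. The absent share was 1.83% with control scores of at least 100, 2.31% with no TAA peak within 500 bp and 3.07% with an overlap of 50% of both peaks, where 42.1% were in all 3 lists. It was 1.88% without the EC control list, at a median rank of 88.2, and 3.06% without the EC TAA list, with 53.1% in all 3 lists and a median rank of 88.9. The cause of these shifts was not tested. The share of HEP and EC regions exceeded that of all 3 lists in 12 of 12 settings, and that of all 3 lists exceeded HEP and HSC regions in 10 of 12, the exceptions being the best 20000 peaks (1.63% and 2.94%) and the overlap of 50% (2.16% and 2.64%). With an EC peak the pooled share (17.0% against 3.75%) was the higher one in 10 of 10 settings, but with the best 20000 peaks the intervals overlapped (10.7% and 9.32%), and with the better 50% of the control lists against whole TAA lists it was 1 of 1285 against 0 of 1506. Both the 12 and the 10 settings included the reported one. Of 98 alternative values of 9 results, 43 stayed within counting error of the value reported, or within 1.5 times for the number of regions, and 55 did not. Keeping only the numbered chromosomes changed none of the 9 results, and its values count among the 43.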
